A study of Mus musculus with 16 samples.

Results

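Open chromatin was examined around 6 genes that are known from innate-like and gamma delta T cells, *Sox13*, *Sox4*, *Maf*, *Blk*, *Etv5* and *Zbtb16*, as it was called by ATAC-seq in 4 stages of mouse thymocytes. The genes were taken by name, 6 of the 20807 protein-coding genes of chromosomes 1 to 19 in GENCODE M21, and a peak belonged to a gene when the whole peak lay in the gene body or within 50 kb on either side (mm10). These windows held 469 of the 476734 peaks in the 4 lists. Merging peaks that shared at least 1 bp gave 176 regions in the windows out of 185978 in all. ATAC-seq cuts accessible DNA with a transposase, and a peak is a stretch where the cuts exceed the local background at 5% FDR.

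The 4 stages came from thymi of 4 wild type C57BL/6J mice, 9 weeks old, with no treatment in any group. Cells were sorted by flow cytometry as CD4 and CD8 double negative (DN, CD3-), double positive (DP), CD4 single positive (SP4, CD3+) and CD8 single positive (SP8, CD3+) thymocytes. All 4 gates were lineage negative, and the lineage antibodies included those against the gamma delta T cell receptor and NK1.1, so cells with either on the surface were gated out of every stage. The 16 libraries, 4 per stage, were capped by the authors at the median depth of all libraries and pooled by stage before peaks were called, which left 1 list per stage, no error between mice and no test between stages.

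During thymocyte development most precursors pass from DN through DP to SP4 or SP8 as alpha beta T cells, while gamma delta T cells branch off within DN, and natural killer T cells and other innate-like cells branch off later. SOX13, SOX4, c-MAF, BLK, ETV5 and PLZF, which *Zbtb16* encodes, are known for their part in the innate-like programme, in particular in gamma delta T cells that make interleukin 17 and, for PLZF, in natural killer T cells. SOX13, SOX4, c-MAF, ETV5 and PLZF are transcription factors, while BLK is a kinase of the Src family that is best known from B cells.

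The DN list held 150139 peaks, the DP list 107110, the SP4 list 115074 and the SP8 list 104411. The DN list was the longest, and regions called at DN alone were the commonest of the single-stage regions over the whole series, so the main counts by stage are given beside the same counts over all regions. Heights are given as percentiles, the percentile of a peak being the share of peaks in the list of the same stage with a lower fold enrichment at the summit, and as the fold enrichment itself over the local background. For regions called at all 4 stages, the median percentile over the whole series was 73.5 in DN, 68.2 in DP, 69.4 in SP4 and 67.1 in SP8, so a difference of a few points between stages is common to all regions. For such regions of the 6 windows the medians were lower at every stage, at 65.5, 56.8, 61.8 and 58.0 in the same order. The regions named below by gene are mostly the highest of their windows. Signal under the threshold leaves no peak, so an uncalled region need not be closed. In pooled cells, fewer open cells and less open chromatin per cell cannot be told apart.

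All 6 genes had a region called at all 4 stages over an annotated start, which 57.6% of protein-coding genes had. The 6 windows together held 159 DN, 112 DP, 105 SP4 and 93 SP8 peaks. By gene, the *Zbtb16* window held 50 DN, 24 DP, 20 SP4 and 23 SP8 peaks. The *Maf* window held 10, 4, 5 and 4 peaks in the same order of stages. The other windows were less uneven, with 32, 30, 32 and 22 peaks for *Sox13*, 20, 21, 13 and 14 for *Sox4*, 23, 17, 15 and 11 for *Blk*, and 24, 16, 20 and 19 for *Etv5*. DN had the most peaks in 4 of the 6 windows (*Maf*, *Blk*, *Etv5* and *Zbtb16*), and in 63.5% of the windows of all protein-coding genes. With lists of equal length this held for 3 of the 6, since *Blk* then had 15 DN and 17 DP peaks. The 63.5% is for the lists as deposited, and no share over all windows is given for lists of equal length. As a share of all bases under peaks in a list, which takes its length into account, the *Zbtb16* peaks covered 277 bp of every 1000 kb under peaks in the DN list, 155 bp in DP, 133 bp in SP4 and 171 bp in SP8. The *Etv5* peaks covered 148, 123, 173 and 154 bp per 1000 kb, highest at SP4, and those of *Sox13* and *Sox4* were highest at DP, at 221 and 175 bp per 1000 kb. *Maf* and *Blk* were highest at DN, at 63.5 and 164 bp per 1000 kb.

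**Figure D1:**
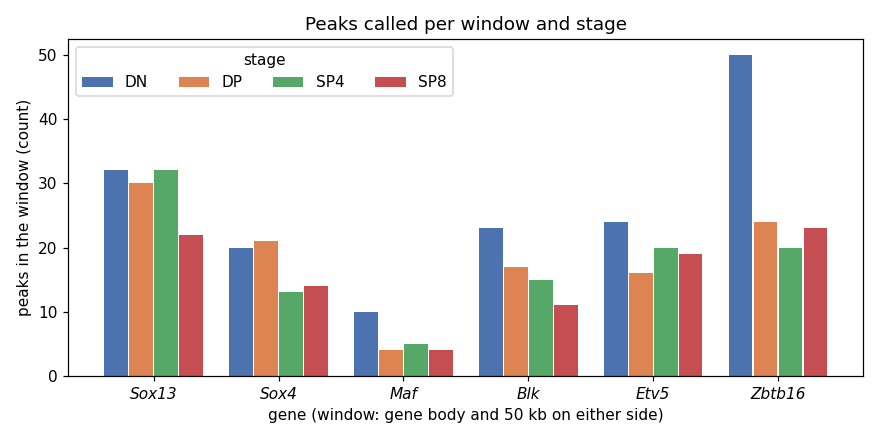
Peaks called in the window of each gene (gene body and 50 kb on either side) at DN, DP, SP4 and SP8, as counts from 1 pooled list per stage. *Zbtb16* had 50 peaks at DN against 20 to 24 at the other stages, while *Sox13* had 32 at both DN and SP4.

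Of the 176 regions, 65 were called at all 4 stages (36.9%, 95% Wilson interval 30.2 to 44.3, which covers counting error only and treats regions of 1 window as independent, which they are not), beside 34.1% of all regions. A further 45 were called at DN alone (25.6%, 19.7 to 32.5), beside 21.7% of all regions. Both shares lay within counting error of the background. DN was the stage at which the most member regions were called, 155 of 176 (88.1%, 82.4 to 92.1), beside 75.7% of all regions. With lists of equal length the windows held 106 DN, 109 DP, 88 SP4 and 93 SP8 peaks, so DN no longer had the most. DP called 102 (background 53.9%), SP4 100 (background 58.3%) and SP8 88 (background 53%), and for these stages the shares of 58.0%, 56.8% and 50% were near the background.

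Regions restricted to the mature stages were fewer than over the series. Only 12 of the 176 (6.82%, 3.94 to 11.5) were called at SP4, SP8 or both with no peak at DN or DP, beside 15.4% of all regions, and 10 of these 12 lay in the *Sox13* and *Etv5* windows. None lay in the *Sox4* or *Maf* windows. With lists of equal length the class held 15 of 139 member regions (10.8%), beside 20.3% of all regions. Regions of a single stage other than DN were 6 at DP (background 5.17%), 7 at SP4 (background 7.39%) and 4 at SP8 (background 4.21%). DN and DP alone shared 11 (6.25%, background 5.59%), and 17 were called at DN and at 1 or both SP stages but not at DP (9.66%, background 8.96%). Regions shared by DN, DP and SP4 and missing at SP8 numbered 13 (7.39%, 4.37 to 12.2), beside 3.14% of all regions, and *Blk* held 4 of them. The mirror class, shared by DN, DP and SP8 and missing at SP4, had 4 (2.27%, background 2.24%).

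**Figure D2:**
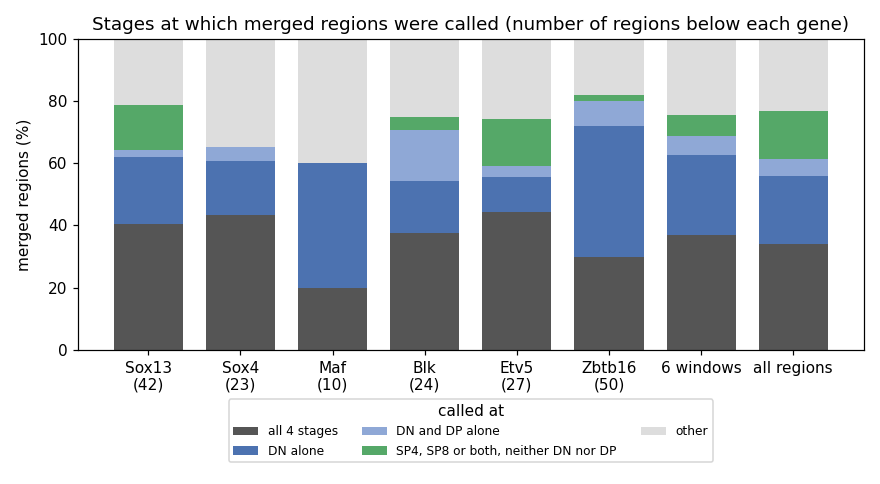
Share of merged regions (%) by the set of stages that called them, for each gene window (number of regions below the name), the 6 windows together and all 185978 regions of the series. The DN-alone part was largest for *Zbtb16* (21 of 50 regions) and *Maf* (4 of 10), and smallest for *Etv5* (3 of 27).

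The share called at DN alone differed among the genes. *Zbtb16* had 21 of 50 regions in this class and *Maf* 4 of 10. *Sox13* had 9 of 42, *Sox4* 4 of 23, *Blk* 4 of 24 and *Etv5* 3 of 27. Over 16942 windows with at least 5 regions the median share was 17.9%, with quartiles of 10.9% and 27.8%. *Zbtb16* at 42.0% and *Maf* at 40.0% stood above the upper quartile, and the other 4 genes, from 11.1% to 21.4%, lay between the quartiles. Most of the DN-alone regions were weak. Their median percentile was 25.1 over the 6 windows (30.2 over the series), and their median width 131 bp (154 bp over the series) against 407 bp for the member regions called at all 4 stages (465 bp over the series). When each list was cut to its 104411 most significant peaks, 5 of the 34 *Zbtb16* regions that were left (14.7%) and 2 of 7 *Maf* regions were still called at DN alone, and the 6 windows together had 15 of 139 (10.8%) beside 11.1% of all regions.

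A merged region counted as strong when its percentile exceeded 75 at 1 or more stages, a limit set after the values were seen, so a region entered through the stage at which it was high. There were 13 such regions among the members called at fewer than 4 stages. They were 11 of the 49 member regions called at 2 or 3 stages (22.4%, beside 15.2% over the series) and 2 of the 62 called at 1 stage (3.23%, beside 3.55%). In all 13 the highest percentile was at DN. In the whole series 66.2% of the 10287 strong regions called at fewer than 4 stages were highest at DN. Of the 13, 11 had no peak at SP8 (84.6%, beside 59.2% over the series), 7 had none at SP4 (53.8%, beside 48.9%) and 5 had none at DP (38.5%, beside 56.9%). With lists of equal length 9 such regions were left, all highest at DN, beside 49.7% of 8028 over the series. Of these 9, 8 had no SP8 peak (88.9%, beside 47.0%), 8 had no SP4 peak (88.9%, beside 44.5%) and 3 had no DP peak (33.3%, beside 51.8%). The share with neither SP peak was 38.5% with the lists as deposited (beside 37.8%) and 77.8% with lists of equal length (beside 31.4%). These contrasts are partly built in. The member regions were all highest at DN, while the series regions include those highest at other stages. The cut to equal length also removes the least significant peaks, so weak SP4 peaks of such regions were lost. The shares rest on 9 regions, some in the same window, and were not tested. Every gene had at least 1 of the 13, with 5 for *Zbtb16*, 3 for *Blk*, 2 for *Sox13* and 1 each for *Sox4*, *Maf* and *Etv5*.

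**Figure D3:**
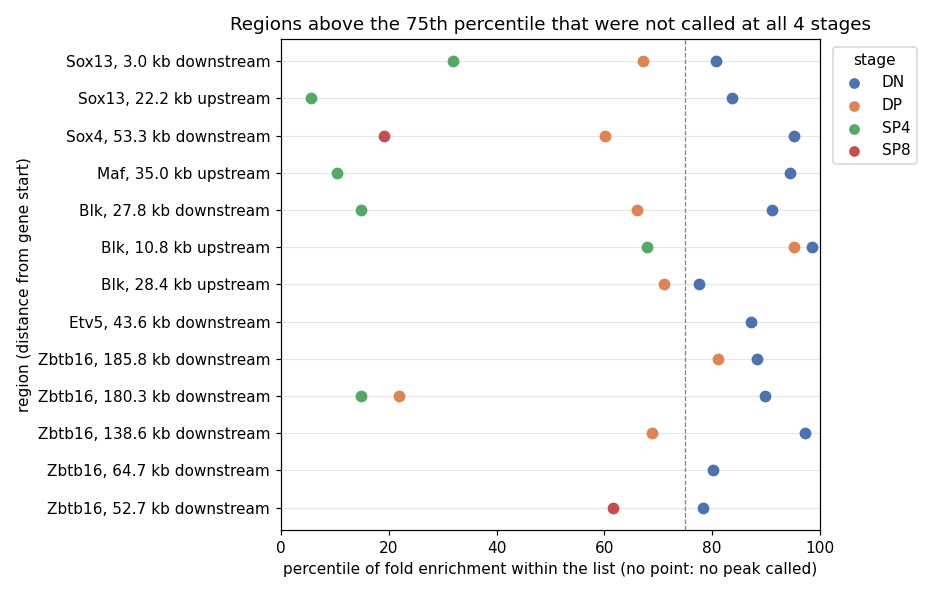
Percentile of fold enrichment within the list of each stage for the 13 regions above the 75th percentile that were not called at all 4 stages, named by gene and distance from the gene start. In each region the DN point is the rightmost, from 77.6 to 98.6, and a missing point means that no peak was called.

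Many of the differences between stages lay away from the gene starts, and the central 151 bp of the regions that carried these differences are printed below with each gene but *Zbtb16* (RefSeq genome, GRCm38.p6, plus strand, 5′ to 3′). Capitals mark the letters of factor motifs found on either strand. The motifs searched were CAGCTG and CAGGTG for E proteins, TGTGGT for RUNX, AGATAA for the GATA family, CTTTGA for TCF and LEF, ACAATG and AACAAT for SOX (which overlap each other), GGAAGT for ETS, GTGGGCG for EGR, TGCTGA for a MAF half-site, TGANTCA for AP-1 and GGAAAA for NFAT. A match is a description of the letters, not of binding, and a window without a match says nothing about the factor.

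*Sox13* encodes a SOX factor of the D group and lies on the minus strand at chr1:133382303-133424377. Its start region was modest at every stage, at percentile 46.1 in DN, 45.3 in DP, 26.7 in SP4 and 40.8 in SP8, the lowest start of the 6 genes at all stages but SP4. A second annotated start 31.0 kb into the gene was called at DN (29.8) and DP (11.8) and at neither SP stage, and the DN peak was not called with lists of equal length. The window was otherwise well filled, with 42 regions, 17 of them within *Sox13*. Downstream it also takes in regions of *Etnk2* and *Ren1*, each with a start region called at all 4 stages. An intronic region 24.2 kb into *Sox13* was at 94.0, 88.9, 82.3 and 81.4 in the order DN, DP, SP4 and SP8, high at all stages.

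Upstream of *Sox13* the stages separated. A region 22.2 kb upstream of the start (chr1:133446385-133446698) was at 83.6 in DN (12.8-fold over background) and at 5.52 in SP4 (2.96-fold), with no peak at DP or SP8. A region 26.9 kb upstream (chr1:133451083-133451474) was highest at SP4, at 85.0 (14.9-fold), against 43.6 in DN, 34.0 in DP and 45.6 in SP8. Between them and the gene, a region 13.6 kb upstream was at 76.2, 91.6, 95.6 and 85.3, lowest at DN. Neighbouring sites of this window were thus highest at different stages, and the pair highest at DN and at SP4 is printed for comparison. The SP4-high site held the SOX and ETS letters, while the DN-high site held none of the motifs searched.
Sox13, 22152 bp upstream, chr1:133446454-133446604: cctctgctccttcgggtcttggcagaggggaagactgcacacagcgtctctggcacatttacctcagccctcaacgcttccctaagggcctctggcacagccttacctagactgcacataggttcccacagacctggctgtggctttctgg
Sox13, 26861 bp upstream, chr1:133451163-133451313: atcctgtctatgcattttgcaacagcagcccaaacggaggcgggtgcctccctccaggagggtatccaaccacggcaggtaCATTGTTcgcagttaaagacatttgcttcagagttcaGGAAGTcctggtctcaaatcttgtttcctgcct

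*Sox4* encodes a SOX factor of the C group, which acts in early lymphocyte precursors as well as in gamma delta T cells, and is a short single-exon gene at chr13:28948919-28953713, minus strand. Its start region was even across stages, at 77.6 in DN, 78.8 in DP, 81.7 in SP4 and 76.0 in SP8. The region 6.1 kb upstream was high and even, at 94.9, 94.95, 91.7 and 93.2. Farther sites were not even. The region 38.6 kb upstream was at 96.2 in DN and 90.8 in DP, and lower at 68.7 in SP4 and 66.4 in SP8.

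Of the *Sox4* sites, the region 21.6 kb upstream (chr13:28974908-28975475) had the widest range among those called at all 4 stages. It was at 89.3 in DN (15.7-fold), 98.9 in DP (28.3-fold), 95.6 in SP4 (23.2-fold) and 45.6 in SP8 (5.67-fold), so SP8 stood apart from the other stages. On the other side, 53.3 kb downstream of the start (chr13:28900218-28900510), a region was at 95.3 in DN (20.8-fold), 60.1 in DP (6.78-fold) and 19.05 in SP8 (3.71-fold), with no SP4 peak. Both are printed, as the site lowest at SP8 and the site highest at DN. The first held a TCF and LEF match, and the second held E-box, RUNX, SOX and ETS letters.
Sox4, 21606 bp upstream, chr13:28975244-28975394: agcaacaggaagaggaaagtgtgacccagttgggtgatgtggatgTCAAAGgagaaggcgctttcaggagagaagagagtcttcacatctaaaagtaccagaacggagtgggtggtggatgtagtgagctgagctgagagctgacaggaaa
Sox4, 53313 bp downstream, chr13:28900325-28900475: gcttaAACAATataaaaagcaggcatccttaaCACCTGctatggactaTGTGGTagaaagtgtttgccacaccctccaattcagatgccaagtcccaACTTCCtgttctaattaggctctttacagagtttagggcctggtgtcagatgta

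*Maf*, which encodes the large bZIP factor c-MAF, lies on the minus strand at chr8:115682942-115707794. Its window held 10 regions, 8.01 per 100 kb, below the median of 13.9 over all gene windows and above the lower quartile of 5.66. The start region was at 80.1 in DN, 78.0 in DP, 89.98 in SP4 and 84.8 in SP8, and the adjoining region 0.507 kb into the gene at 63.9, 75.9, 56.2 and 61.1. These were the regions of the window called at all 4 stages, and the first was highest at SP4 while the second was highest at DP. The second overlaps an annotated antisense gene, *Gm15655*, and ATAC-seq does not tell strands apart.

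A single distal site of *Maf* was strong. It lay 35.0 kb upstream between genes (chr8:115742581-115743104), at 94.4 in DN (19.8-fold) and 10.5 in SP4 (3.32-fold), with no peak at DP or SP8. At DN it stood above the *Maf* start by fold enrichment, but by rank of q-value the start (91.0) stood above it (88.7). With lists of equal length the SP4 peak was no longer called. The remaining distal regions of the window were weak, including 1 at 19.2 kb upstream that was at 26.0 in DN, 19.3 in SP4 and 26.7 in SP8. The central bases of the strong site held an E-box, TCF and LEF letters and an AP-1 match.
Maf, 34969 bp upstream, chr8:115742688-115742838: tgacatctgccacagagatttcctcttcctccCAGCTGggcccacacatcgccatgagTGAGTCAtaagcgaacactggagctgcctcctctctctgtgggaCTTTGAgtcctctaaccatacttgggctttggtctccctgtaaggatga

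*Blk* lies on the minus strand at chr14:63372836-63417037, and its window also takes in part of *Fam167a*. Its start region was strong at 84.0 in DN, 90.3 in DP and 94.3 in SP8, and lower at 70.7 in SP4, although by rank of q-value the DN peak (93.8) stood above that of SP8 (90.2). An intronic region 39.5 kb into the gene (chr14:63377233-63377786) was also lowest at SP4, at 94.3 in DN (19.7-fold), 90.1 in DP (16.6-fold) and 89.2 in SP8 (18.0-fold) against 30.6 in SP4 (4.29-fold). This was the widest range, 63.6 points, of any *Blk* region called at all 4 stages. Another intronic region, 35.0 kb into the gene, was highest at SP4 by fold enrichment, at 54.3 in DN, 58.2 in DP, 79.8 in SP4 and 63.0 in SP8. By rank of q-value the same region was at 73.3, 69.4, 74.5 and 75.1, highest at SP8.

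The strongest distal site of *Blk* was 10.8 kb upstream between genes (chr14:63427634-63428164). It was at 98.6 in DN (27.0-fold), 95.2 in DP (21.0-fold) and 68.0 in SP4 (9.01-fold), with no SP8 peak, whereas the *Blk* start was highest at SP8 by fold enrichment. A region 27.8 kb into the gene had the same set of stages, at 91.1, 66.0 and 14.8, and a region 28.4 kb upstream, within an intron of *Fam167a*, was at 77.6 in DN and 71.1 in DP alone. The 2 sites that separate SP4 and SP8 in opposite ways are printed. The upstream site held an E-box, and the intronic site held RUNX letters and a MAF half-site.
Blk, 10834 bp upstream, chr14:63427796-63427946: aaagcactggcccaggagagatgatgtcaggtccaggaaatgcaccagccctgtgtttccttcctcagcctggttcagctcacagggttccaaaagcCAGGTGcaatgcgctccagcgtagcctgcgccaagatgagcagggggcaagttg
Blk, 39456 bp downstream of the start, chr14:63377506-63377656: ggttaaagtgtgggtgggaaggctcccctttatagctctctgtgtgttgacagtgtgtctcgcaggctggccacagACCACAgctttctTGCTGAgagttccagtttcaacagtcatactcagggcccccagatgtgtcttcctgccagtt

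Since BLK is a B cell kinase, B cell markers were read beside it. Of 8 such genes, *Pax5*, *Ebf1*, *Cd79b* and *Blnk* had a start called at all 4 stages, *Cd22* at SP4 and SP8 alone, and *Cd79a* and *Ms4a1* were among those with no start region in any list. The called B cell starts had a median percentile of 82.5 in DN, 65.1 in DP, 66.9 in SP4 and 44.9 in SP8. These medians are over 4 genes at DN and DP and over 5 at SP4 and SP8, where *Cd22* was added at 24.0 and 23.0, so they do not compare the same genes. The part of other cells in the *Blk* peaks was not tested.

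*Etv5*, which encodes an ETS factor of the PEA3 group, lies on the minus strand at chr16:22381309-22439719, and its window also takes in part of *Dgkg*. The *Etv5* start was among the strongest in every list, at 98.6 in DN, 98.3 in DP, 98.99 in SP4 and 99.1 in SP8. A pair of distal regions was nearly as high. The first, in an intron 51.7 kb into the gene, was at 96.8 in DN, 95.6 in DP, 98.3 in SP4 and 90.4 in SP8. The other, 89.7 kb downstream of the start and beyond the gene, was at 94.3, 81.9, 94.2 and 98.6 in the same order. The lowest of these values was that of DP at the second site.

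Within the introns of *Etv5*, 4 of the 9 regions lying in the gene were called at all 4 stages. A 667 bp region 43.6 kb into the gene (chr16:22395680-22396346) was called at DN alone, at 87.2 and 14.5-fold over background. Of the 45 DN-alone regions, 2 were strong (4.44%, beside 5.50% over the series), this one and a *Zbtb16* intron region 64.7 kb into the gene, at 80.2. A region 27.7 kb into the gene (chr16:22411828-22412261) was at 66.8 in DN (7.98-fold), 11.8 in DP (3.27-fold), 64.7 in SP4 (8.30-fold) and 49.4 in SP8 (6.11-fold), and so was lowest at DP. The DN-alone site held an E-box and RUNX letters, and the site low at DP held the SOX letters.
Etv5, 43644 bp downstream of the start, chr16:22396000-22396150: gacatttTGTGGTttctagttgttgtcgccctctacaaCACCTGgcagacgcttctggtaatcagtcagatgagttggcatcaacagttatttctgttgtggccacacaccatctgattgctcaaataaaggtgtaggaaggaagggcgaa
Etv5, 27704 bp downstream of the start, chr16:22411940-22412090: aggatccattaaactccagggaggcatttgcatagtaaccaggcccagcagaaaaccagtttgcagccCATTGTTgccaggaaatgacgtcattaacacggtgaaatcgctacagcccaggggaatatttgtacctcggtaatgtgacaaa

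*Zbtb16* encodes PLZF, a BTB zinc finger factor that natural killer T cells and other innate-like T cells need, and is the longest of the 6 genes, at chr9:48654297-48836222 on the minus strand. Its start region (chr9:48835907-48836328) varied more between stages than any other start of the 6. It was at 79.9 in DN (11.3-fold), 56.8 in DP (6.32-fold), 4.08 in SP4 (2.84-fold) and 54.1 in SP8 (6.77-fold). The SP4 peak over the start had a −log10 q-value of 1.98, against 71.2 at DN, and was not called with lists of equal length. Within the gene lay 31 of the 50 regions, and 11 of these were called at DN alone, at percentiles of 4.33 to 80.2.

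Long introns of *Zbtb16* held both kinds of site. The region 138.6 kb into the gene was at 97.1 in DN (23.4-fold) and 68.9 in DP (8.42-fold), with no peak at either SP stage. A region over an exon 180.3 kb into the gene was at 89.8 in DN, 21.9 in DP and 14.8 in SP4, with no SP8 peak. The region 185.8 kb downstream of the start, just beyond the gene, was at 88.3 in DN and 81.2 in DP alone. By contrast, an intronic region 31.5 kb into the gene was high at all stages, at 95.8 in DN, 87.5 in DP, 97.0 in SP4 and 93.7 in SP8. At SP4 the gene thus had a strong intronic region and a weak start.

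**Figure D4:**
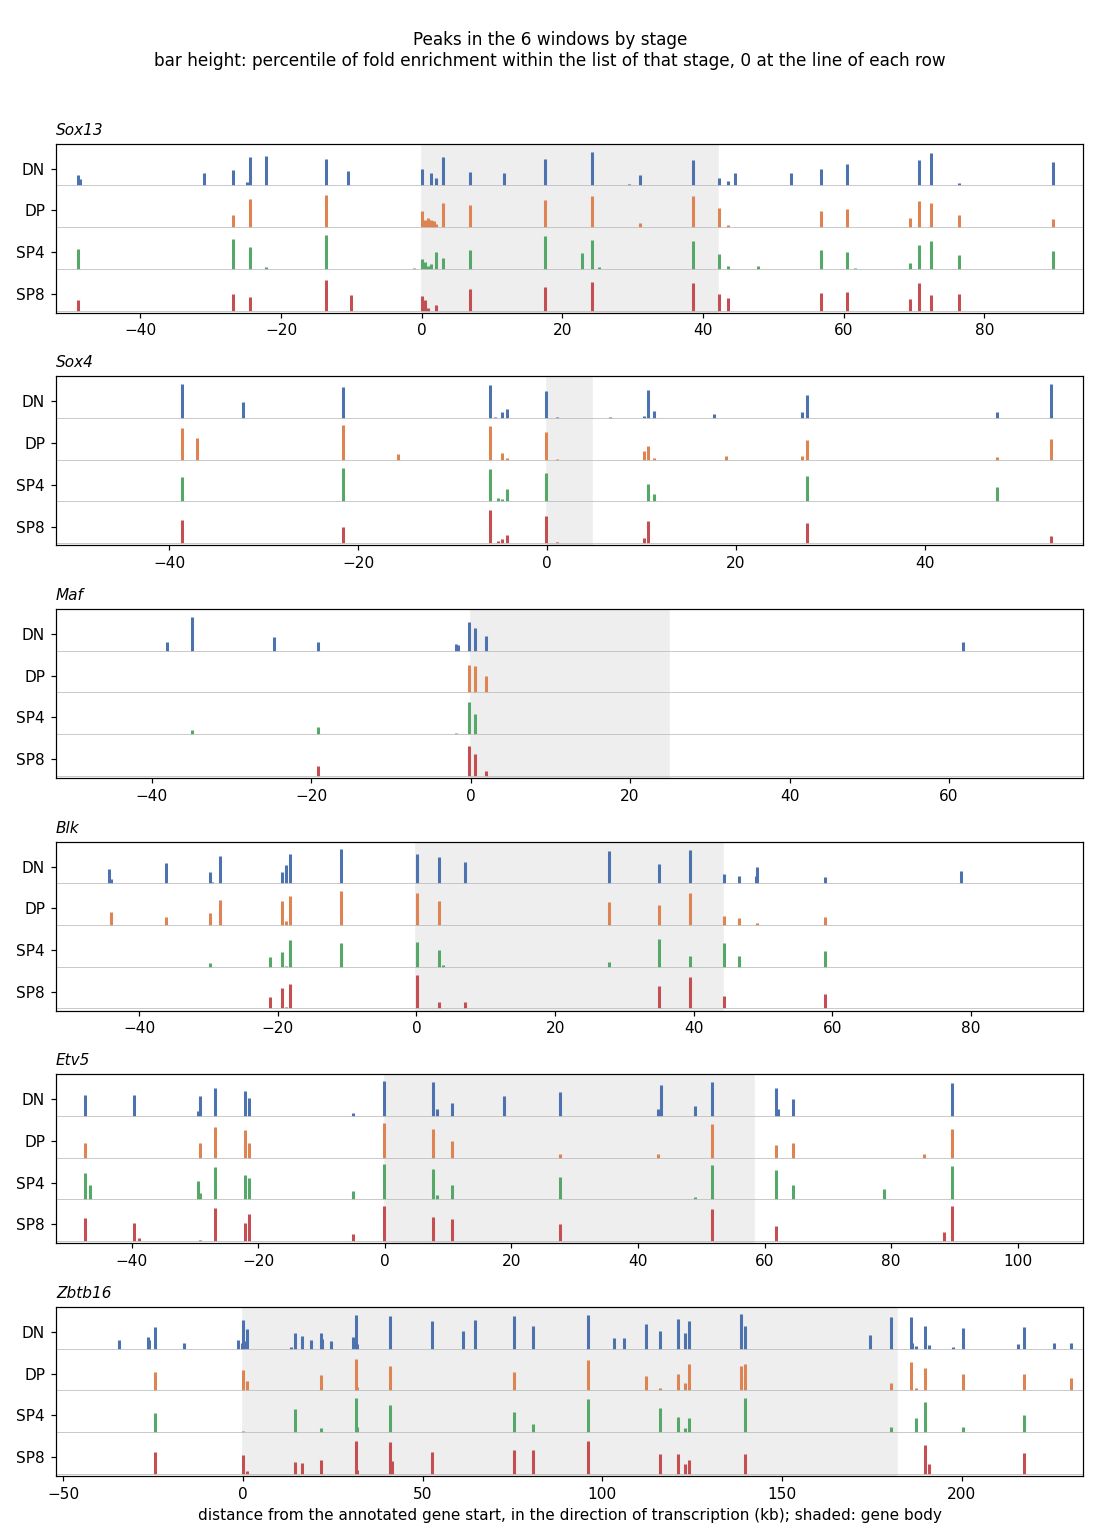
Peaks at each stage along the 6 windows, by distance from the gene start in the direction of transcription (kb, gene body shaded), with bar height as the percentile of fold enrichment within the list of the stage (0 at each line). Each bar is a merged region, placed at its highest summit over the stages, so peaks of a stage in the same region share a bar. The *Zbtb16* window holds 50 DN peaks against 20 at SP4, and the isolated DN bar 35.0 kb upstream of *Maf* is at 94.4.

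Set side by side, the start regions ranked *Etv5* first at every stage and *Sox13* last at DN, DP and SP8. At DN the starts of *Sox4* (77.6), *Zbtb16* (79.9), *Maf* (80.1) and *Blk* (84.0) lay close together, and with 1 list per stage their order has no error to be read against. At SP4 the order was *Etv5*, *Maf*, *Sox4*, *Blk*, *Sox13* and *Zbtb16*. The range over the stages was 75.8 points for *Zbtb16*, 23.6 for *Blk*, 19.3 for *Sox13*, 12.0 for *Maf*, 5.76 for *Sox4* and 0.799 for *Etv5*.

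**Figure D5:**
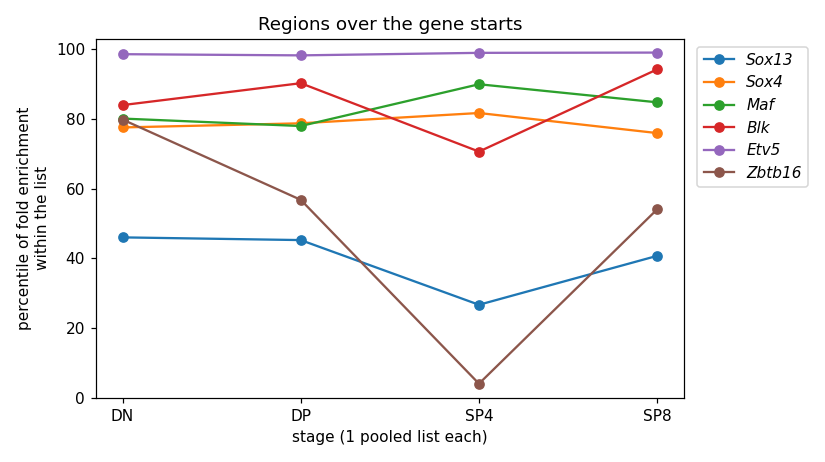
Percentile of fold enrichment within each list for the region nearest the annotated start of each gene, by stage. *Etv5* lay between 98.3 and 99.1 at all stages, while *Zbtb16* was at 79.9 at DN, 4.08 at SP4 and 54.1 at SP8.

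Among the 65 regions called at all 4 stages, the highest percentile was that of DN in 25, of DP in 9, of SP4 in 21 and of SP8 in 10. Over all regions called at all 4 stages, the shares were 35.0%, 21.5%, 23.8% and 19.7%. Of the 176 regions, 12 lay over the start of a gene, 9 over an exon, 78 in introns and 77 between genes. Just inside the limit of the windows, at 40 to 50 kb from the genes, 11 regions had a median highest percentile of 42.1, and just outside, at 50 to 60 kb, 15 regions had 55.2.

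In the 200 bp around the summits the member regions held much the same letters as the rest of the series. An E-box was found in 70 of 176 (39.8%, beside 37.0% of all regions) and in 23 of the 45 DN-alone regions (51.1%, beside 46.2% of all DN-alone regions). RUNX letters were found in 40 (22.7%, beside 25.2%), ETS letters in 40 (22.7%, beside 23.5%), a MAF half-site in 34 (19.3%, beside 18.5%) and TCF and LEF letters in 32 (18.2%, beside 15.96%). The remaining shares were 11.4% for NFAT (beside 11.4%), 8.52% for SOX (beside 11.6%), 7.39% for AP-1 (beside 7.18%), 6.25% for GATA factors (beside 8.07%) and 1.70% for EGR (beside 2.45%). In each case the background lay within the 95% Wilson interval of the member share. The median GC content of the same 200 bp was 53% in the members and 51% over all regions.

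Other genes of the innate-like and gamma delta programme were read the same way. Of 24 such genes, 15 had a start called at all 4 stages, among them *Id2*, *Gata3*, *Tbx21* and *Runx3*. No start region was found in any list for *Il17a*, *Il23r*, *Egr3*, *Cd163l1* or *Trdc*. The *Il17f* start was called at DN alone, at 17.1. The windows of the 24 genes held 799 regions, of which 13.9% were called at DN alone and 20.4% at the SP stages alone. For the 6 members these shares were 25.6% and 6.82%, and for all regions 21.7% and 15.4%. *Zbtb16* alone held 21 of the 45 member regions called at DN alone. With lists of equal length the member shares were both 10.8%, beside 11.1% and 20.3% of all regions. The shares of the 24 genes are given for the lists as deposited only.

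Markers of other cells were checked beside these results, and their part in them was not tested. Of 8 gamma delta T cell genes, none had a start region that was itself called at all 4 stages, and 3 were called at DN and 2 at each other stage. *Il1r1* and *Ccr6* had 2 start regions each, which together were called at every stage. In the order DN, DP, SP4 and SP8 the higher was at 94.8, 52.8, 60.6 and 8.54 for *Il1r1*, and at 37.1, 42.9, 22.9 and 18.6 for *Ccr6*. *Trdc*, *Trdv4*, *Cd163l1*, *Il23r* and *Il17a* had no start region. Of 8 natural killer and innate lymphoid genes, 5 were called at all 4 stages, while *Ncr1*, *Klrb1c* and *Klrk1* had no start region. Of 8 myeloid genes 4 were called at DN and 2 at each other stage. *Lyz2* (88.4, 15.2-fold over background) and *Mpo* (weaker, 3.59-fold) had a start peak at DN alone. The *Itgam* start was higher at the SP stages, at 60.7 in DN, 45.6 in DP, 87.03 in SP4 and 91.5 in SP8. That of *Cebpa* was at 88.6, 84.7, 70.8 and 86.9 in the same order. For the labelled stages themselves, 7 of 8 DN, 7 of 8 DP and 8 of 8 SP thymocyte genes had a start called at all 4 stages. Among them the *Ptcra* start, which belongs to the gene of the pre-T cell receptor alpha chain, was at 94.5 in DN and 92.3 in DP against 28.2 in SP4 and 15.0 in SP8. Among the other DN genes, *Hes1* was also highest at DN (72.3). The starts of *Il2ra*, *Kit*, *Notch1* and *Cd44* were highest at SP8, and that of *Dtx1* at SP4. The *Notch1* start was at 25.6 in DN against 71.1 in SP8, so the start percentiles of these genes did not follow the stage they mark.

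For each member the 2 genes whose windows were most alike were named by the Euclidean distance over the 4 stages between these shares of bases under peaks, scaled to 1 at the highest stage. They were *Epb41l5* (0.0117) and *Fn3krp* (0.0177) for *Sox13*, *Zscan20* (0.0182) and *Anks6* (0.0231) for *Sox4*, and *Scn3a* (0.0235) and *Tgfb3* (0.0296) for *Maf*. For *Blk* they were *Bpifb9a* (0.0507) and *Prlh* (0.0559), for *Etv5* *Ism1* (0.0170) and *Chpt1* (0.0260), and for *Zbtb16* *Gm3435* (0.0157) and *Crybb2* (0.0226). On this scale *Zbtb16* stood at 1 in DN, 0.561 in DP, 0.480 in SP4 and 0.619 in SP8, and *Etv5* was highest at SP4, with 0.710 in DP.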

How the data were processed

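Open chromatin of 4 thymocyte stages was profiled by ATAC-seq in 4 mice. The authors used BWA for alignment to mm10 and Picard for marking duplicates, and retained proper pairs at a mapping quality of at least 30. Libraries were then capped at the median depth and combined by stage, and MACS2 calls were made at 5% FDR. Each deposited list gives the score of MACS2, the fold enrichment at the summit as a ratio over local background, −log10 of the p-value and q-value, and the summit offset. The p-values and scores deposited by the authors were not used here. Pooling hides the spread between mice, so the depth per mouse and its error are unknown for every peak, and the stage of each list was taken from its stage name and the labels.

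Peaks were merged where they shared at least 1 bp, regions were classed by stage, and heights were turned into percentiles within each list (python 3.11.15, pandas 2.3.3, numpy 2.4.6). Wilson intervals (scipy 1.17.1) are at 95%. Genes came from GENCODE M21 and sequences from RefSeq GRCm38.p6, whose chromosome lengths held all peaks. Merging, classing, window assignment and percentiles were tested on simulated lists. For each gene the text names the regions over its starts, the highest region away from starts at each stage, the highest region called at fewer than 4 stages, and the region called at all 4 stages with the widest range, besides 2 genes of like pattern. The remaining strong regions missing at 1 or more stages were named after their values were seen. The members and gene lists were chosen with earlier results of these data known. The lists were innate-like and gamma delta programme genes, relatives of the members, and markers of B, myeloid, gamma delta T, natural killer and innate lymphoid cells and of DN, DP and SP thymocytes. Alternatives were other window rules and reaches, a stricter q-value of 0.001, lists of equal length, a 50 bp overlap, ranks by q-value and a motif window of 100 bp. Promoter sequences are not printed, since those in the regions overlap untranslated exon sequence. Some items are not reported here.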

Additional observations from a re-analysis of the deposited data

How the results depend on the processing

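With 1 pooled list per stage, no mouse could be left out and no result has a test. No paired analysis was possible because the mice of each stage were pooled before peaks were called. Lists of equal length (104411 peaks each) brought the share of member regions called at DN alone to 10.8%, beside 11.1% of all regions, and left 106 DN, 109 DP, 88 SP4 and 93 SP8 peaks in the windows. With the gene bodies alone there were 69 regions, with 62 DN, 46 DP, 40 SP4 and 38 SP8 peaks, which follows from the shorter windows. Under the other window rules, the 100 kb reach, the q-value of 0.001 and the 50 bp overlap, the share called at DN alone lay between 25.1% and 25.8% and the share called at all 4 stages between 35.4% and 37.1%.

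Ranked by q-value, 56 of the named percentiles moved by at most 10 points and 41 by more, by up to 27.5. With lists of equal length, an alternative for percentiles and for single windows that was chosen after seeing the data, 84 moved by at most 10 points, 7 by more and 6 were no longer called. Each of these changed the highest stage in 3 of 28 named regions. By q-value these were the *Blk* start (SP8 to DN), the *Blk* intron region at 35.0 kb (SP4 to SP8) and the *Zbtb16* intron region at 31.5 kb (SP4 to DN). With equal lists they were both *Sox13* starts (DN to DP) and the *Etv5* region at 27.7 kb (DN to SP4). The cause was not tested. In the 100 bp around the summits an E-box was held by 26.7% of member regions, beside 24.5% of all regions.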

Other observations

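Relatives of the 6 genes were read in the same lists, as values with no test. Of 16 relatives, 10 had a start called at all 4 stages. In their windows 568 regions were found. Of these, 22.9% were called at DN alone (beside 21.7% of all regions) and 15.1% at the SP stages alone (beside 15.4%), both near the background. DN had the most peaks in 14 of the 16 windows, beside 63.5% of the windows of all protein-coding genes. *Sox6*, *Sox11*, *Sox12*, *Fgr* and *Zbtb32* had no start region in any list. *Sox5*, which like *Sox6* belongs to the SOX group of *Sox13*, had a start at 78.2 in DN, 80.3 in DP, 74.2 in SP4 and 64.2 in SP8, above the *Sox13* start at every stage. Among the Src family kinases, the *Lyn* start was at 56.5 in DN, 64.3 in DP, 14.8 in SP4 and 19.05 in SP8, while those of *Lck* and *Fyn*, the family members best known from T cells, were at 82.7 to 92.2 and 88.9 to 93.5. *Zbtb7b*, which encodes ThPOK of the CD4 lineage, had a start region called at SP4 alone, at 56.4.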
